A study of Homo sapiens with 6 samples.

Results

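The RNA levels of CIITA, CD74 and 8 classical and accessory MHC class II genes (HLA-DRA, HLA-DRB1, HLA-DPA1, HLA-DPB1, HLA-DQA1, HLA-DQB1, HLA-DMA and HLA-DMB) were followed in A375 cells. A375 is an established melanoma line of human origin and was kept in DMEM that contained fetal bovine serum. These 10 genes are 10 of the 58721 gene identifiers in the count table. They were taken by name, and they were chosen with earlier results of the same comparison known, so their levels and changes are given as a description and carry no test. The cells had received a CRISPR guide RNA either against mCherry, a fluorescent protein gene that human cells lack (control, labelled wild type, 3 libraries), or against SOX10, which encodes a neural crest and melanocyte transcription factor (knockout, 3 libraries). No interferon or other treatment is named in the labels. The sources used here do not give where the guide cuts, or whether 1 clone or a mixture of edited cells was sequenced.

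MHC class II molecules are pairs of an alpha and a beta chain that carry peptides from the endosomal system to the cell surface, where CD4+ T cells read them. HLA-DR, HLA-DP and HLA-DQ are the presenting isotypes. CD74, the invariant chain, escorts newly made pairs to endosomes, and HLA-DM then exchanges its remnant for a peptide, a step that HLA-DO holds back. Their transcription is switched on by CIITA, a coactivator that does not bind DNA itself and is recruited by RFX, CREB and NF-Y proteins sitting on the X and Y boxes upstream of these genes. Class II genes are best known from professional antigen-presenting cells and from cells exposed to interferon-gamma, and a part of melanomas carries them without added interferon.

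Gene counts summed to between 70075002 and 78148565 per library, and 3 counts, taken as the floor, were worth at most 0.0417 CPM, the usual depth-scaled count, here also scaled by the TMM factor. SOX10 itself stood at 241, 237 and 223 CPM in control replicates 1, 2 and 3 and at 47.2, 47.8 and 41.5 CPM in the knockout replicates, a log2 fold change of -2.36 (edgeR quasi-likelihood test, adjusted p = 1.84e-07; the exact two-sided permutation test gave p = 0.1, the smallest that 20 assignments allow). Of the 8 melanocytic markers that could be tested, 3 were higher in knockout (MITF, MCAM and TYRP1) and 3 lower (S100B, DCT and CSPG4). Among all tested genes, 14.0% were higher and 14.0% lower. TYRP1 had 5, 7 and 4 counts in control and 23, 14 and 15 in knockout, and DCT 131, 112 and 110 against 5, 7 and 3. TYRP1 passed the filter on low counts only through knockout and DCT only through control, so neither call is read as support. MITF went from 57.5 to 138 CPM and S100B from 32.9 to 1.28 CPM. PMEL and MLANA, which define pigmented melanocytes, had means below 1 CPM in both groups, and TYR was at or near 0. The labels do not say whether the replicates were separate cultures, and the p-values therefore measure a spread among libraries that could be technical.

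The sequences in front of these genes are printed for the letters of the X and Y boxes. Promoter sequences from RefSeq (GRCh38.p14, 250 bases before to 50 bases after a start) were at hand for 8 of the 10 genes, HLA-DPA1 with 2 starts, and for 6 of 11 other class II genes. The stretch from 150 to 31 bases before the start is printed 5′ to 3′ on the strand of the gene. Capitals mark matches, on either strand, to an X-box-like core (AGNNACNGA) or to the Y-box core (ATTGG, read as CCAAT on the other strand). HLA-DOA, a chain of HLA-DO, is added because its fold change was the largest of the class II genes tested.
HLA-DRB1 (chr6:32589879-32589998, minus strand): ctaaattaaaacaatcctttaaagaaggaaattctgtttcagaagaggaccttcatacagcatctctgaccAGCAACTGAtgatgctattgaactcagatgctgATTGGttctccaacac
HLA-DQA1 (chr6:32637256-32637375, plus strand): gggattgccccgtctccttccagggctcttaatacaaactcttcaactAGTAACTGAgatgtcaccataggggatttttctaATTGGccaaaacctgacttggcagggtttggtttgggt
HLA-DQB1 (chr6:32666688-32666807, minus strand): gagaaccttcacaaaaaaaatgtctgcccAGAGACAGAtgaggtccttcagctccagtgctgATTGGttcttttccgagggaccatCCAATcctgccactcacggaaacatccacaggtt
HLA-DMA (chr6:32953128-32953247, minus strand): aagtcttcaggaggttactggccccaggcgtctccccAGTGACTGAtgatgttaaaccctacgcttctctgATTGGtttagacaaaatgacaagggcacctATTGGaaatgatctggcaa
HLA-DOA (chr6:33009622-33009741, minus strand): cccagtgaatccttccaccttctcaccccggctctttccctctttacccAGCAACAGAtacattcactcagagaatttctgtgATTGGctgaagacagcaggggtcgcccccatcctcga
HLA-DMB (chr6:32941059-32941178, minus strand): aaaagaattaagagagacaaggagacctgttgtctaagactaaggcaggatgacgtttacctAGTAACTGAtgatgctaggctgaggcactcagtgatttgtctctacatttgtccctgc
HLA-DPA1 (chr6:33073680-33073799, minus strand): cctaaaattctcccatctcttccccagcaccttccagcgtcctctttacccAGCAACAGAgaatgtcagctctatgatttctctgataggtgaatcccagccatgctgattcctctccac
HLA-DPB1 (chr6:33075840-33075959, plus strand): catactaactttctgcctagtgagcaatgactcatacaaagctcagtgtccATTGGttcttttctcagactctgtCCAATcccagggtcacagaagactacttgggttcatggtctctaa
CD74 (chr5:150412941-150413060, minus strand): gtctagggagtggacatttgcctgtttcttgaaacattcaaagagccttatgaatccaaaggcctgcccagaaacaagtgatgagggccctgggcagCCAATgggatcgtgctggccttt
The X-box-like core occurred in 6 of the 9 member promoters, against 15.3% of all 35116 RefSeq promoters of the same length, and the Y-box core in 7 of 9, against 34.6%. An X-box-like core followed on the same strand by a Y-box core 10 to 35 bases further on was present in 4 of 9, those of HLA-DRB1, HLA-DQA1, HLA-DQB1 and HLA-DMA, against 119 of all promoters, or 0.339%. In these 4 the boxes were separated by 24 bases (HLA-DRB1, HLA-DQB1) or 25 bases (HLA-DQA1, HLA-DMA), and by 25 bases in HLA-DOA. Of the 6 other class II promoters, 3 held the X-box-like core, 6 the Y-box core and 2 the pair (HLA-DOA and HLA-DRB5). Those of HLA-DQA2, HLA-DQB2 and HLA-DOB held no X-box-like core. A link between the pair and the size of a decrease was not tested. HLA-DMB and the HLA-DPA1 start shown held only the X-box-like core in the printed stretch, HLA-DPB1 and CD74 only the Y-box core. The core of SOX-family sites, ACAAAG, was present in 2 of 9 (CD74 and HLA-DPB1) against 16.1% of all promoters, and it is not in capitals. The motifs were chosen after these sequences had been seen, the cores of a pair cannot overlap at the spacing searched, and a match describes letters and not a bound site.

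All 10 genes were lower in the knockout libraries, and in each of them every knockout library lay below every control library. The median log2 fold change over the 10 was -2.56, with a range from -3.97 to -1.23, beside -0.02 over all 19263 tested genes. All 10 passed the filter on low counts and were past the threshold (edgeR, adjusted p under 0.05) in the lower direction, where 14.0% of all tested genes were, and 21.5% of all tested genes had non-overlapping groups in that direction. At least a 2-fold decrease past the threshold was found in all 10, beside 4.72% of tested genes. Since the genes were chosen on this comparison, nothing is read from these counts. In bulk RNA, fewer cells with the transcript and less transcript per cell cannot be told apart.

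**Figure D1:**
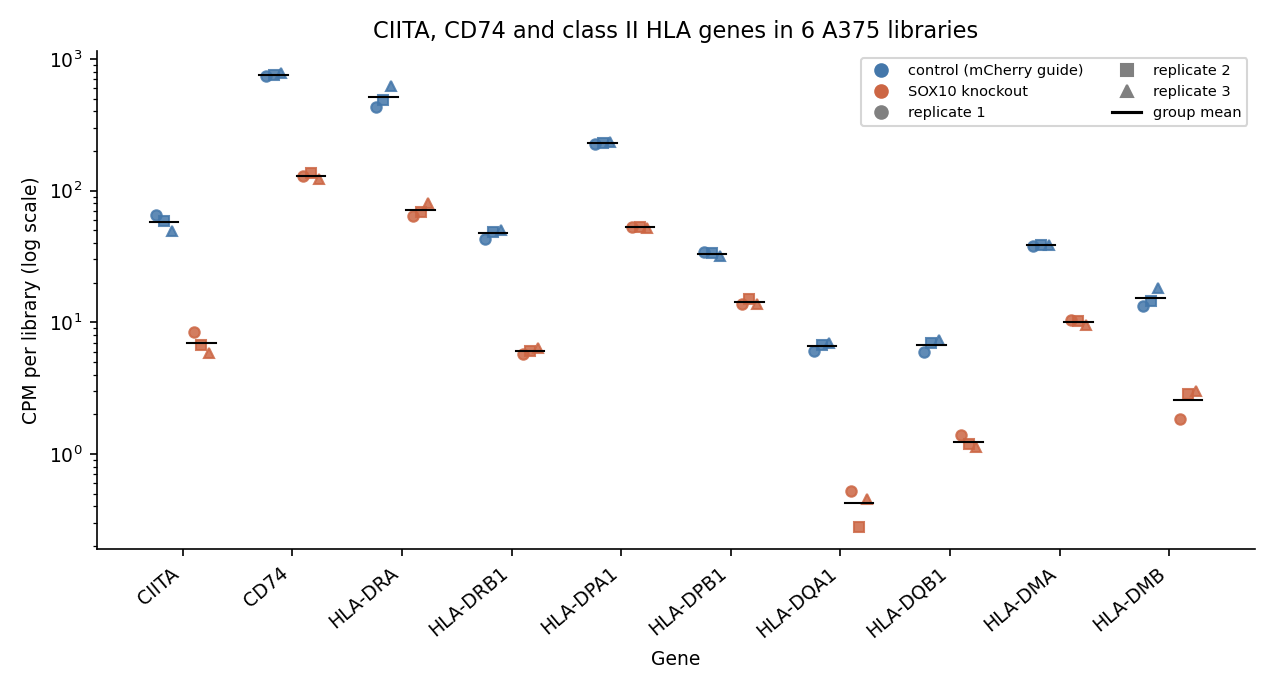
CPM of the 10 genes (log axis) in each of the 3 control libraries (blue) and 3 SOX10 knockout libraries (orange), with the replicate number as the marker shape and the group mean as a bar. Every knockout library lies below every control library for each gene, and the distance is widest for HLA-DQA1 and narrowest for HLA-DPB1.

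CIITA (ENSG00000179583; GRCh38 chromosome 16, 10866222 to 10943021, plus strand), the coactivator at the top of the pathway, had 4698, 4398 and 3537 counts in control replicates 1, 2 and 3 and 603, 523 and 459 in the knockout replicates. These are 65.3, 59.3 and 49.0 CPM against 8.38, 6.68 and 5.85 CPM. The groups were far apart, and in both of them replicate 1 was highest and replicate 3 lowest. The mean went from 57.9 ± 8.22 to 6.97 ± 1.29 CPM (SD, n = 3 libraries), an 8.30-fold decrease with a log2 fold change of -3.06 (SE 0.15). CIITA overlaps DEXI on the opposite strand over 13570 bases, and whether reads were counted by strand is not stated in these sources. DEXI held 2548 counts over the 6 libraries, against 14218 for CIITA.

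CD74 (ENSG00000019582; chromosome 5, 150401637 to 150412929, minus strand), the invariant chain and a CIITA target outside the HLA region, was the most abundant of the 10 genes. It stood at 742, 755 and 777 CPM in the control libraries and at 129, 137 and 122 CPM in the knockout libraries. The libraries of a group lay close together. The decrease was 5.87-fold, from 758 ± 17.6 to 129 ± 7.73 CPM, and the log2 fold change was -2.55 (SE 0.07).

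The HLA-DR chains fell together. HLA-DRA (ENSG00000204287; chromosome 6, 32439842 to 32445046, plus strand), the alpha chain, stood at 430, 491 and 619 CPM in control replicates 1, 2 and 3 and at 63.7, 68.4 and 81.1 CPM in knockout. Replicate 3 was the highest in both groups, and the groups were far apart. HLA-DRB1 (ENSG00000196126; 32578769 to 32589848, minus strand), its beta chain, stood at 42.7, 48.7 and 50.5 CPM and at 5.70, 6.08 and 6.40 CPM. The log2 fold changes were -2.85 (SE 0.15, 7.22-fold lower) for HLA-DRA and -2.96 (SE 0.09, 7.81-fold lower) for HLA-DRB1. HLA-DRB1 has near-identical relatives, so its reads may be shared with HLA-DRB5 and HLA-DRB6 or lost, and the HLA alleles of the line can differ from the reference.

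The HLA-DP chains were reduced less, and unequally. HLA-DPA1 (ENSG00000231389; 33064569 to 33080775, minus strand), the alpha chain, had 226, 229 and 233 CPM in control and 53.1, 52.9 and 51.8 CPM in knockout, and each knockout library kept between 22.6% and 23.2% of the control mean. HLA-DPB1 (ENSG00000223865; 33075926 to 33087201, plus strand), the beta chain, had 33.9, 33.8 and 32.0 CPM in control and 13.8, 14.9 and 13.9 CPM in knockout, which is 41.5% to 45.0% of its control mean. The spread within a group was small for both chains. The log2 fold change was -2.12 (SE 0.05) for HLA-DPA1 and -1.23 (SE 0.07) for HLA-DPB1, the smallest decrease among the 10 genes. The annotated genes overlap on opposite strands over 4850 bases, so without strand their reads cannot be fully separated.

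The HLA-DQ chains were the scarcest. HLA-DQA1 (ENSG00000196735; 32628179 to 32647062, plus strand), the alpha chain, had 437, 503 and 503 counts in control and 38, 22 and 36 in knockout, or 6.07, 6.78 and 6.97 CPM against 0.528, 0.281 and 0.459 CPM. Between 4.25% and 7.99% of the control mean remained, and the log2 fold change of -3.97 (SE 0.19, 15.6-fold lower) was the largest decrease of the 10. HLA-DQB1 (ENSG00000179344; 32659467 to 32668383, minus strand), the beta chain, had 427, 520 and 529 counts in control and 101, 94 and 88 in knockout, or 5.94, 7.01 and 7.34 CPM against 1.40, 1.20 and 1.12 CPM. Its log2 fold change was -2.45 (SE 0.13). The chains thus started at like levels and ended apart. Reads of both may be shared with HLA-DQA2 and HLA-DQB2.

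HLA-DM, the peptide exchanger, was reduced as well. HLA-DMA (ENSG00000204257; 32948613 to 32969094, minus strand) had 38.2, 39.0 and 38.8 CPM in control and 10.3, 10.3 and 9.59 CPM in knockout, a log2 fold change of -1.94 (SE 0.06). HLA-DMB (ENSG00000242574; 32934629 to 32941070, minus strand) had 955, 1072 and 1313 counts in control and 133, 222 and 236 in knockout, or 13.3, 14.5 and 18.2 CPM against 1.85, 2.84 and 3.01 CPM, a log2 fold change of -2.57 (SE 0.19). HLA-DMA libraries barely varied within a group, whereas knockout replicate 1 lay well below the other two for HLA-DMB. HLA-DMA overlaps BRD2 on the opposite strand over 435 bases. A protein-coding gene annotated on the same strand, ENSG00000248993, overlaps HLA-DMA over 4510 bases and HLA-DMB over 3707 bases. It had 0 counts, and reads that fit it as well as HLA-DMA or HLA-DMB may have been lost, whatever the strand setting.

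Ordered by fold change, HLA-DQA1 stood below CIITA by more than 2 combined standard errors. CIITA, HLA-DRB1, HLA-DRA, HLA-DMB, CD74 and HLA-DQB1 followed without any neighbouring pair differing by that much. HLA-DPA1, HLA-DMA and HLA-DPB1 came last, each separated from its neighbours by more than that. The order is a description and not a test. The standard errors were combined as if genes were independent, although all were measured in the same 6 libraries.

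**Figure D2:**
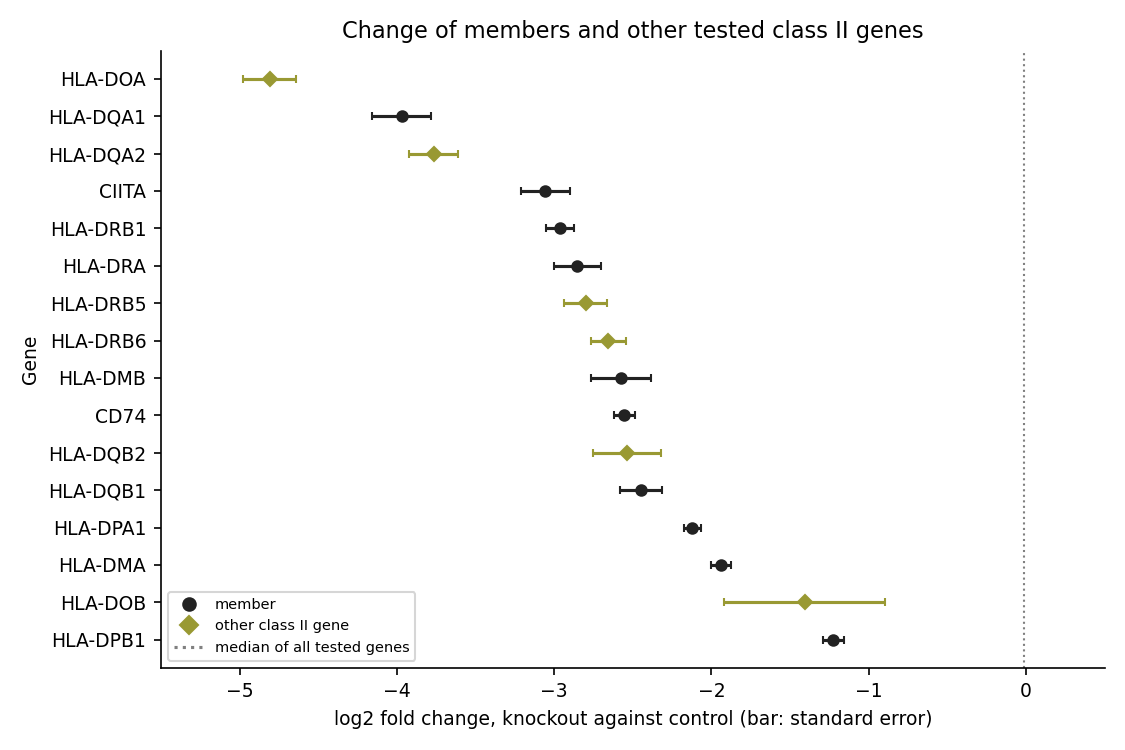
Log2 fold change of knockout against control, with its standard error, for the 10 genes (black) and the 6 other class II genes that could be tested (olive diamonds), ordered by size; the dotted line is the median of all tested genes. HLA-DOA lies at -4.81 and HLA-DPB1 at -1.23.

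Levels of different genes were compared per kilobase of annotated exon, leaving out CIITA, whose exon union of 16108 bases comes from many transcripts. In control cells, CD74 (453 ± 10.5 CPM per kilobase) and HLA-DRA (401 ± 75.3) were highest and did not differ beyond their spread, and HLA-DPA1 followed at 134 ± 2.02. HLA-DRB1 (38.5 ± 3.32) and HLA-DMA (34.4 ± 0.366) came next, then HLA-DPB1 at 21.3 ± 0.674 and HLA-DMB at 11.0 ± 1.84. HLA-DQB1 (3.79 ± 0.411) and HLA-DQA1 (3.76 ± 0.270) were at the bottom and alike within their spread. In knockout cells the highest levels were those of CD74 (77.1 ± 4.62), HLA-DRA (55.5 ± 7.02) and HLA-DPA1 (30.9 ± 0.400). Below them the order changed: HLA-DPB1 (9.10 ± 0.412) and HLA-DMA (8.97 ± 0.374), alike within their spread, now stood above HLA-DRB1 (4.93 ± 0.287), and HLA-DQB1 (0.697 ± 0.0814) above HLA-DQA1 (0.240 ± 0.0725).

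The mix of isotypes among the 8 HLA genes shifted from DR towards DP. Their summed level was 796, 869 and 1006 CPM in the control libraries and 150.45, 157 and 167 CPM in the knockout libraries, 5.63-fold lower. The DR chains made up 59.4%, 62.1% and 66.6% of that sum in control and 46.2%, 47.5% and 52.3% in knockout, and the DP chains 32.6%, 30.2% and 26.3% against 44.5%, 43.2% and 39.2%. Neither share overlapped between the groups. DQ went from 1.51% ± 0.0818 to 1.06% ± 0.196 and DM from 6.46%, 6.14% and 5.67% to 8.10%, 8.36% and 7.53%. As summed chains, DQ decreased 8.03-fold, DR 7.27-fold, DM 4.27-fold and DP 3.93-fold.

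Ratios within a library, which no scaling can move, showed the same differences. The log2 ratio of HLA-DPA1 to HLA-DRA went from -1.15 ± 0.24 to -0.43 ± 0.20, a shift of 0.72. HLA-DQA1 relative to HLA-DRA shifted by -1.17 and HLA-DMA relative to HLA-DRA by 0.90, again without overlap. CD74 (shift of 0.29), HLA-DRB1 (-0.12) and CIITA (-0.22) relative to HLA-DRA overlapped between the groups when libraries were not matched by number. Compared with the control library of the same number, every knockout library was higher for CD74 and lower for HLA-DRB1 and CIITA. The numbers are not known to be pairs, so whether these decreases differ from that of HLA-DRA is not settled. The CD74 shift was 0.16 without control replicate 3. Within the heterodimers, HLA-DPB1 to HLA-DPA1 shifted from -2.79 ± 0.07 to -1.89 ± 0.06 and HLA-DQB1 to HLA-DQA1 from 0.03 ± 0.06 to 1.60 ± 0.43. HLA-DMB to HLA-DMA shifted from -1.35 ± 0.23 to -2.01 ± 0.42, a difference of -0.66 that was -0.42 without knockout replicate 1.

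The 10 genes did not vary as a block from library to library. HLA-DRA, HLA-DRB1 and HLA-DMB were highest in replicate 3 and lowest in replicate 1 in both groups, with replicate 3 above replicate 1 by 0.52 (control) and 0.35 (knockout) on the log2 scale for HLA-DRA, by 0.24 and 0.17 for HLA-DRB1 and by 0.46 and 0.70 for HLA-DMB. CIITA ran the opposite way, with replicate 3 below replicate 1 by log2 differences of -0.41 and -0.52. CD74, HLA-DPA1, HLA-DPB1 and HLA-DMA spanned only 0.03 to 0.17 between their highest and lowest library of a group. For HLA-DQA1 and HLA-DQB1, replicate 3 lay above replicate 1 by 0.20 and 0.31 in control, whereas the differences were -0.20 and -0.32 in knockout, where HLA-DQA1 spanned 0.91 on 22 to 38 counts.

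**Figure D3:**
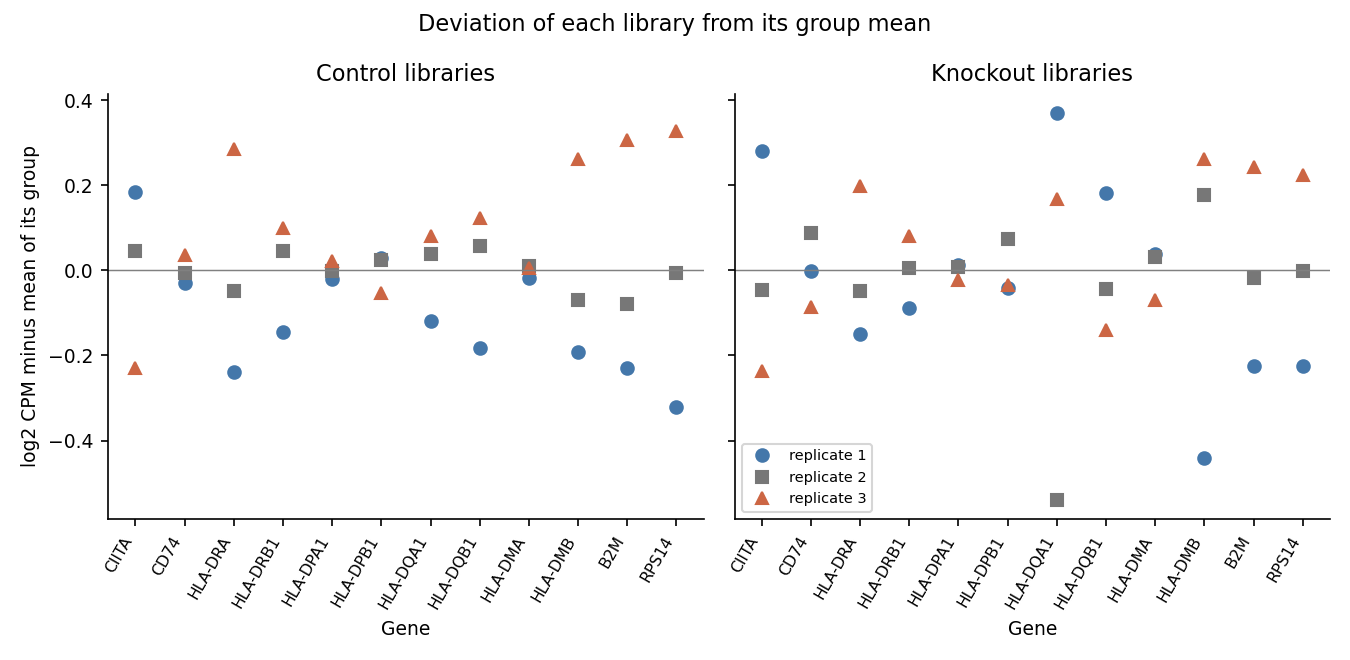
Deviation of each library's log2 CPM from the mean of its group for the 10 genes and for B2M and RPS14, in control (left) and knockout (right), with the replicate number as colour and shape. Replicate 3 is highest for HLA-DRA, HLA-DRB1 and HLA-DMB and lowest for CIITA in both panels, and the points of HLA-DPA1 span 0.04 in control.

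Transcript length moved with these deviations. Among genes of at least 5 CPM, ordered by exon length and cut into 4 groups of like size, the group with the shortest exon unions (68 to 2376 bases, 2718 genes) had a median log2 ratio of replicate 3 to replicate 1 of 0.24 in control and 0.19 in knockout. The group with the longest (5933 to 35721 bases) had -0.18 in both. CD74 and the 8 HLA genes belong to the shortest group and CIITA to the longest. HLA-DRA, HLA-DRB1, HLA-DMB and CIITA had the sign of their length group in both control and knockout. CD74 (-0.08), HLA-DPA1 (-0.03), HLA-DMA (-0.11), HLA-DQA1 (-0.20) and HLA-DQB1 (-0.32) went the other way in knockout, and in control they lay between 0.02 and 0.31. HLA-DPB1 was at -0.08 in control and 0.007 in knockout. The class I light chain B2M showed 0.54 and 0.47 and the ribosomal protein gene RPS14 showed 0.65 and 0.45. Both belong to the second shortest group (2377 to 3827 bases), whose medians were only 0.04 in control and 0.01 in knockout. The part of length in the deviations was not tested.

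Other class II genes, mostly accessory or duplicated, were lower too: of 11 listed, 6 could be tested, 5 fell and 0 rose, with a median of -2.73 (28.0% of all tested genes were past the threshold in either direction). With HLA-DOB, 6 were at an unadjusted p under 0.05, DESeq2 called 5 and limma-voom 6, all lower. HLA-DOA, the alpha chain of the HLA-DM inhibitor, had 669, 658 and 604 counts in control and 16, 32 and 24 in knockout, and fell from 8.85 ± 0.463 to 0.312 ± 0.0933 CPM (log2 fold change -4.81, SE 0.17, edgeR adjusted p = 2.76e-07). This exceeds the decrease of any of the 10 genes. HLA-DOB, its beta chain, had 21, 21 and 25 counts against 16, 3 and 7, a log2 difference of -1.41 with an adjusted p of 0.0758 in edgeR, 0.0392 in limma-voom and 0.0113 without knockout replicate 1.

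HLA-DRB5 fell from 22.7 ± 2.42 to 3.25 ± 0.551 CPM (log2 fold change -2.80) and the pseudogene HLA-DRB6 from 7.92 ± 0.701 to 1.25 ± 0.0327 (-2.66). HLA-DQA2 fell from 8.29 ± 0.979 to 0.610 ± 0.101 CPM (-3.76) and HLA-DQB2 from 3.31 ± 0.671 to 0.568 ± 0.128 (-2.54). These changes resemble those of HLA-DRB1, HLA-DQA1 and HLA-DQB1, with which they may share reads, so they are not separate evidence. The other 5 genes had too few counts to be tested: at most 15 in any library for HLA-DPB2, 9 for HLA-DRB9 and 2 for HLA-DQB1-AS1, and 0 in all libraries for HLA-DPA2 and HLA-DPA3.

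Genes lying between the class II genes were not called lower. From HLA-DRA to HLA-DPB1 (chromosome 6, 32439842 to 33087201), 13 of 14 tested class II genes fell, with a median of -2.61. Of the 6 other tested genes there, TAP1, TAP2, PSMB8, PSMB8-AS1, PSMB9 and BRD2, 0 fell and 1 rose, with a median of 0.30 and a range from -0.15 to 0.84. Over all tested genes 14.0% fell and 14.0% rose, so 0 lower among 6 is near that share. None of the 6 was lower at an unadjusted p under 0.05 in edgeR, DESeq2 or limma-voom, and DESeq2 called 3 higher. TAP1, a subunit of the peptide pump of class I presentation, stood at 18.2 ± 1.13 CPM in control and 18.3 ± 0.894 in knockout. PSMB8, an immunoproteasome subunit, rose from 26.7 ± 3.52 to 35.9 ± 2.61 CPM (adjusted p = 0.0149, and up to 0.0628 when a library was left out).

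**Figure D4:**
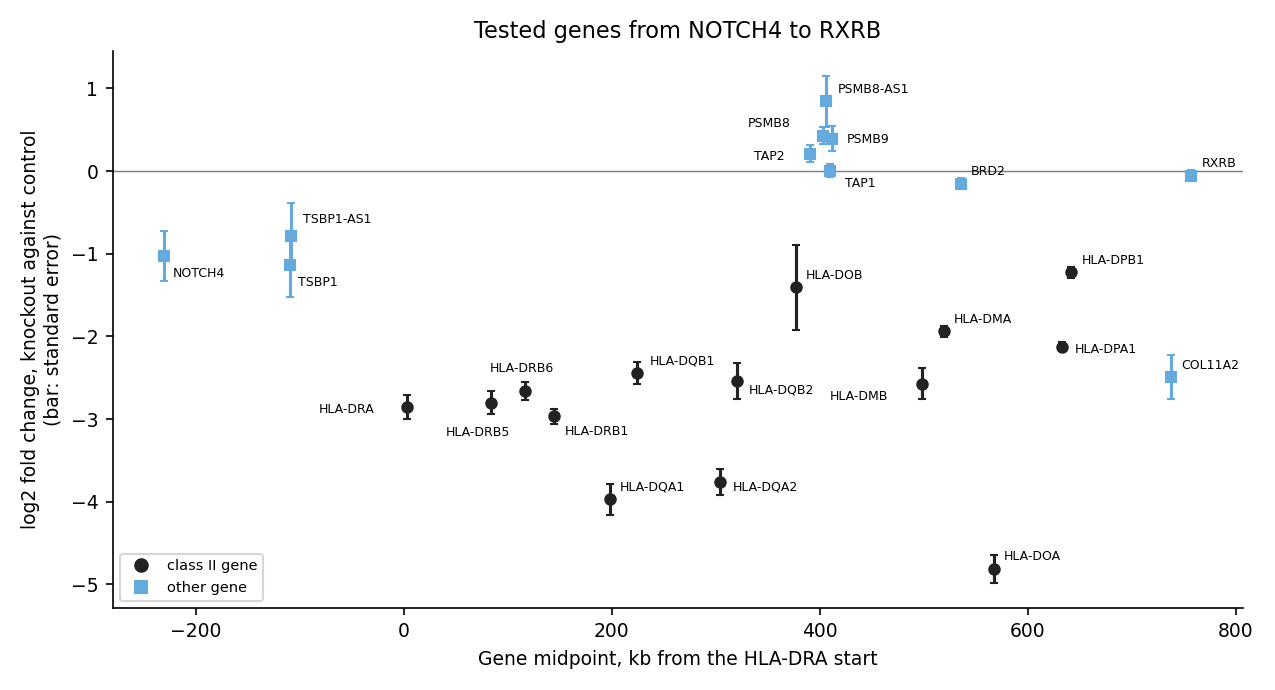
Log2 fold change and its standard error of tested genes by position, in kilobases from the HLA-DRA start, for class II genes (black circles) and other genes (blue squares). The 14 class II genes lie between -4.81 and -1.23, and the 6 other genes among them lie between -0.15 and 0.84.

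Of 9 tested of 10 listed neighbours in and around this region, 2 fell and 1 rose (median -0.06). COL11A2, a fibrillar collagen gene just beyond HLA-DPB1, fell from 2.29 ± 0.499 to 0.405 ± 0.127 CPM (log2 fold change -2.49, adjusted p = 1.51e-04). BRD2, a chromatin reader, stood at 160 ± 8.95 and 144 ± 8.73 CPM (adjusted p = 0.152). NOTCH4, a Notch receptor, fell from 0.509 ± 0.0691 to 0.249 ± 0.0831 CPM (adjusted p = 0.0368, lost without any of 5 of the 6 libraries, up to 0.111). Next to CIITA and CD74 no tested gene passed: 0 of 4 and 0 of 3, also 0 at an unadjusted p under 0.05, in DESeq2 and in limma-voom, with medians of -0.14 and -0.08. Over all tested genes 28.0% passed, and with so few neighbours nothing is read from these counts. CLEC16A, beside CIITA, stood at 30.7 ± 4.88 and 29.4 ± 3.15 CPM, and RPS14, beside CD74, at 1076 ± 241 and 1057 ± 164 CPM.

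Of 13 tested genes whose proteins bind or modify class II and CIITA promoters, 4 fell and 1 rose in edgeR's quasi-likelihood test (median -0.20, beside -0.02 over all tested genes). The shares over all tested genes were 14.0% in each direction, and nothing is read from these counts. RFX5, the large RFX subunit, fell from 109 ± 7.21 to 78.5 ± 4.51 CPM (log2 fold change -0.47, adjusted p = 0.0015). RFXAP went from 9.69 ± 0.387 to 7.70 ± 0.552 CPM (-0.33, adjusted p = 0.0182, up to 0.0926 when a library was left out). RFXANK, named after its value was seen because it completes the RFX complex, went from 28.4 ± 3.22 to 23.2 ± 0.756 CPM (-0.30, adjusted p = 0.0379, 0.0518 with scaling by total counts and up to 0.120 when a library was left out). EZH2, a histone methyltransferase of the Polycomb group, fell from 107 ± 3.82 to 76.9 ± 3.66 CPM (-0.48, adjusted p = 5.17e-04). PRDM1, known as a repressor of CIITA in plasma cells, rose from 1.38 ± 0.395 to 3.32 ± 0.388 CPM (1.26, adjusted p = 0.0018). It overlaps ATG5 on the opposite strand over 23620 bases, and ATG5 held 24703 counts over the 6 libraries, so without strand some of its reads may be shared. The chromatin remodeller SMARCA4, the most abundant gene not past the threshold, stood at 247 ± 37.7 and 202 ± 23.6 CPM (adjusted p = 0.129, and 0.0116 without control replicate 3).

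Genes of interferon-gamma signalling, the usual inducer of CIITA, were called in both directions. Of 13 listed genes 10 were tested, and 2 rose and 2 fell (median 0.12). Among all tested genes 14.0% rose and 14.0% fell, and with so few genes nothing is read from these counts. IRF1, an interferon-induced transcription factor and CIITA activator, rose from 6.17 ± 0.248 to 8.35 ± 0.414 CPM (log2 fold change 0.43, adjusted p = 0.0043). IFNGR2, a receptor chain, fell from 45.8 ± 2.53 CPM to 76.6% of that level (-0.38, adjusted p = 0.0022), and IRF2 went from 31.8 ± 1.84 to 26.7 ± 1.10 CPM (-0.25, adjusted p = 0.0253, up to 0.0925 when a library was left out). JAK1, a receptor kinase, stood at 107 ± 12.9 and 110 ± 9.91 CPM (adjusted p = 0.798), and IFNG and IRF8 had 0 counts in every library.

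Genes that interferon-gamma induces were likewise called in both directions: of 16 listed, 10 were tested, 2 rose and 2 fell (median 0.27). Beside 14.0% of all tested genes in each direction, nothing is read from these counts either. GBP2, an interferon-induced GTPase, fell from 11.5 ± 0.924 to 3.21 ± 0.373 CPM (log2 fold change -1.84, adjusted p = 5.09e-06), and WARS1, a tryptophan tRNA ligase, from 183 ± 3.25 to 129 ± 2.29 CPM (-0.51). NLRC5, which for class I genes does what CIITA does for class II, rose from 5.78 ± 0.375 to 9.44 ± 0.884 CPM (0.71, adjusted p = 7.86e-04). B2M stood at 638 ± 126 and 783 ± 128 CPM (adjusted p = 0.210, and 0.0206 without control replicate 3).

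In endosomal processing, 4 of 12 tested genes rose and 2 fell (median 0.17), beside 14.0% of all tested genes in each direction. With so few genes, nothing is read from these counts. CTSS, the protease that trims CD74, rose from 1.02 ± 0.272 to 2.85 ± 0.167 CPM (log2 fold change 1.48, adjusted p = 4.28e-04). CTSB rose from 123 ± 4.92 to 173 ± 1.09 CPM and CTSL from 143 ± 1.44 to 189 ± 2.88 CPM, both lysosomal cathepsins. LGMN, an asparaginyl endopeptidase, fell from 14.0 ± 0.223 to 10.4 ± 0.469 CPM and CTSF, another cathepsin, from 15.9 ± 1.25 to 11.1 ± 1.13 CPM. CTSZ stood at 211 ± 6.94 and 237 ± 10.6 CPM (adjusted p = 0.0763). Of the partners of CD74, 3 of 5 were tested, 2 rose and 0 fell (median 0.64). CD44, its signalling partner, rose from 1059 ± 32.9 to 1296 ± 64.9 CPM (0.29, adjusted p = 0.0083, and 0.0508 without control replicate 2). ACKR3, a chemokine receptor, had 0, 1 and 0 counts in control and 21, 16 and 13 in knockout (adjusted p = 0.0010). MIF, the cytokine that CD74 binds, had 12, 14 and 15 counts against 20, 29 and 18 (edgeR adjusted p = 0.179) and overlaps an antisense gene. A protein-coding gene annotated on the same strand, with 0 counts, also covers 1220 bases of MIF. Reads that fit both may have been lost, so these counts need not give the level of MIF.

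**Figure D5:**
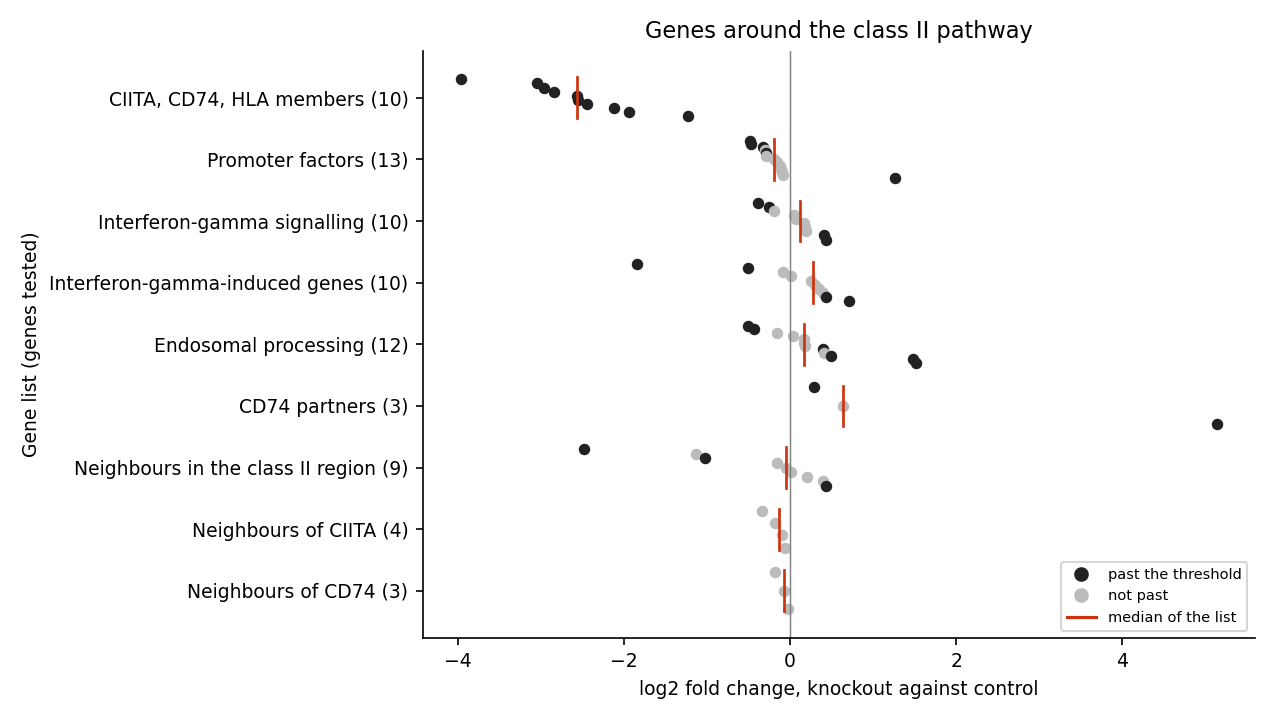
Log2 fold change of each tested gene of the 10 genes described and of 8 lists around them, black where past the threshold (edgeR adjusted p under 0.05) and grey where not, with the median of each list in red. The 10 genes lie between -3.97 and -1.23, and the medians of the 8 lists between -0.20 and 0.64.

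The transcripts whose profile over the 6 libraries lay nearest to the summed HLA level, among 10862 genes of at least 5 CPM and with the 10 genes left out, were RMEL3, MOK, CHRDL1, KALRN and HAPLN1. The measure was the root mean square difference of log2 CPM after centring each profile on its mean. RMEL3, a long non-coding RNA known from melanoma, was at a distance of 0.0823 and went from 21.2 ± 2.93 to 3.38 ± 0.161 CPM. MOK, a protein kinase, was at 0.0933 (134 ± 9.73 to 25.9 ± 1.46 CPM), CHRDL1, a BMP antagonist, at 0.105 (21.0 ± 0.672 to 4.02 ± 0.170 CPM), KALRN, a guanine nucleotide exchange factor, at 0.114 and HAPLN1, a hyaluronan link protein, at 0.122. CD74 lay at 0.120 from the same profile, CIITA at 0.410 and HLA-DPB1, itself part of the sum, at 0.645. The 5 genes were picked as the nearest of the 10862, so being closer than CIITA follows from the choice and nothing is read from it.

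Markers of cells that carry class II genes constitutively were counted as well. Of 16 leukocyte and antigen-presenting cell markers, 6 could be tested, of which 2 rose (ITGAX, 0.545 to 1.53 CPM, and CSF1R, 0.174 to 0.748 CPM) and 1 fell (LYZ). Among all tested genes, 28.0% passed the threshold in either direction. CSF1R, with 21, 11 and 6 counts in control, passed the filter on low counts only through the knockout libraries. CD1C and AIF1 had 0 counts in all 6 libraries. PTPRC, the general leukocyte marker, had 1, 10 and 3 counts in control and 1, 0 and 5 in knockout, MS4A1 at most 1 and SPI1 at most 3. CD14 had at most 24 counts in a library, CD4 at most 21 and LAG3 at most 26. The summed level of the 16 was 11.9 to 15.4 CPM in control and 4.00 to 4.87 CPM in knockout, and it moved with the class II genes through LYZ, lysozyme, which fell from 12.1 ± 1.80 to 1.64 ± 0.360 CPM. Without LYZ the sum was 1.26 to 1.77 CPM in control and 2.59 to 3.38 CPM in knockout. The part of such cells in the class II levels was not tested.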

How the data were processed

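The authors deposited raw, unnormalized read counts per gene for 6 libraries. Per the labels' protocols RNA was column-extracted and libraries were made with a stranded poly(A) kit, and HISAT2, HTSeq and build hg38 are named per the submitters' processing notes. Versions, the strand setting and the annotation are not given in these sources. All 58721 identifiers matched GENCODE 29, which supplied coordinates and exon lengths, and 58207 had a current symbol. Total counts were 71793584, 74745810 and 74970700 (control) and 70075002, 77390247 and 78148565 (knockout). Floors cover counting error only. No replicates were duplicates.

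The quasi-likelihood test of edgeR 4.0.16 (R 4.3.3) compared knockout with control, two-sided, after filterByExpr and TMM scaling, without covariates, with Benjamini-Hochberg adjustment over 19263 genes and a threshold of 0.05. Of these, 2694 were higher and 2702 lower (28.0% in all). On simulated counts of 19263 genes calls were made for 30 of 67 genes set to a 1.5-fold change, for 50 of 67 set to 2-fold and for 61 of 66 set to 4-fold, and 11 of 152 calls fell on genes left as they were. The genes set to change were a far smaller share than the 28.0% called in the data, so this recovery need not hold there. Alternatives were DESeq2 1.42.0, limma-voom (limma 3.58.1), other scalings and filters, a replicate block and leaving out each library. Tables and promoter searches used Python 3.11.15 with pandas 2.3.3 and numpy 2.4.6, and plots matplotlib 3.10.9.

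The 10 genes, the lists and the tests were chosen with earlier results of these data known. Named were the 10 genes, SOX10, all other class II genes, of each list up to 4 genes past the threshold with the smallest p, up to 2 of the other direction and the most abundant gene that did not pass, and the 5 nearest profiles. RFXANK, TAP1, the cell markers and the motifs were picked outside this rule. Some results this rule would name are not reported here.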

Additional observations from a re-analysis of the deposited data

How the results depend on the processing

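All 130 alternative values of the 10 genes (13 other fits) were lower and past the threshold, with log2 fold changes from -4.14 (HLA-DQA1) to -1.19 (HLA-DPB1) and a largest adjusted p of 2.17e-04 (HLA-DMB). The log2 change of the summed HLA level of -2.49 stayed between -2.56 and -2.40. Of 929 alternative values of the 72 other genes of the lists and nearest profiles, 27 lost and 47 gained the threshold and 0 reversed. Leaving out a library gave 1986 to 2935 genes higher and 1794 to 2958 lower, with 1794 without knockout replicate 2, against 2694 and 2702, and 9 to 16 genes higher and 14 to 19 lower of the lists, against 11 and 17. With the replicate number as a block, 4637 genes were higher and 5176 lower, and 23 and 32 of the lists. Same-numbered libraries correlated in their deviations by 0.55, 0.019 and 0.595 for replicates 1, 2 and 3. Control replicate 3 and knockout replicate 1 correlated by -0.58, and control replicate 1 and knockout replicate 3 by -0.55. Replicates 1 and 3 thus differed alike in both groups, with replicate 2 between them, which holds its value near 0. The numbers were not taken as pairs because the labels name no shared culture or batch behind them. Control replicate 2 correlated best with knockout replicate 1 (0.15). Depth limits HLA-DOB and the knockout level of HLA-DQA1. Many 1.5-fold changes went uncalled in the simulation, where far fewer genes changed than were called in the data, so the part missed here is not known. Read sharing among HLA paralogs and overlap of genes on the same or on opposite strands could not be examined in gene counts.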
